A study of Mus musculus with 5 samples.

Results

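The kinases described here are the c-Jun N-terminal kinases (JNKs), the p38 kinases and the kinases that switch the JNKs on. Mapk8, Mapk9 and Mapk10 encode JNK1, JNK2 and JNK3. Mapk11, Mapk12, Mapk13 and Mapk14 encode p38β, p38γ, p38δ and p38α. Map3k12 encodes dual leucine zipper kinase (DLK), Map3k13 encodes the related leucine zipper kinase (LZK), and Map2k7 encodes MKK7. They were taken by gene symbol, from a list drawn up with earlier results of these data known. All 10 symbols were found among the 25655 genes of the count table. All 10 passed the filter on low counts, which kept 14992 genes.

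Total RNA of whole mouse retina was sequenced 7 days after optic nerve crush (ONC), in which the optic nerve behind the eye is pinched so that the axons of the retinal ganglion cells (RGCs) are cut off from the brain. All mice were wildtype C57BL/6, between 8 and 10 weeks old, and mice of both sexes were used. The 2 Sorbinil retinas (replicates 1 and 3) came from mice injected with Sorbinil, an inhibitor of aldose reductase, at 10 mg/kg from the day before the crush and daily afterwards. The 3 DMSO retinas (replicates 1, 2 and 3) came from crushed mice given the vehicle, so both groups carry the injury and no uninjured retina enters the comparison. Sorbinil replicate 2 was not analysed here. The question of the comparison is whether expression in the injured retina differs with Sorbinil. Replicate numbers name separate samples of a group, and the p-values measure the spread between these 5 samples.

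MAP kinases work in chains of 3 kinases, in which a MAP3K phosphorylates a MAP2K and the MAP2K phosphorylates the MAP kinase. DLK and LZK are MAP3Ks of neurons, and DLK is known for carrying the signal of axon injury from the optic nerve to the RGC body, where it acts through MKK4 and MKK7 on the JNKs and through c-Jun on transcription. MKK3 and MKK6 are the MAP2Ks of the p38 kinases, which respond to stress and to inflammatory cytokines in neurons and glia alike. These enzymes are switched on by phosphorylation, which transcript counts do not measure.

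The 7 MAP kinase genes share a switch that their own coding sequence shows. MAP2Ks phosphorylate a threonine and a tyrosine that are separated by a single residue, which is proline in the JNKs and glycine in the p38 kinases. The coding strand around these codons was taken from the reference transcripts (GENCODE vM39, GRCm39), with the codons for threonine, the middle residue and tyrosine in capitals and 9 bases on each side in lower case.
Mapk8: tttatgatgACGCCTTATgtggtgact
Mapk9: tttatgatgACTCCCTATgtggtaact
Mapk10: ttcatgatgACTCCGTATgtggtgacg
Mapk11: gaggagatgACCGGATATgtggccaca
Mapk12: agtgagatgACAGGATATgtggtaacc
Mapk13: actgagatgACGGGCTATgtggtgacc
Mapk14: gatgagatgACAGGCTACgtggctacc
Each window of 27 bases lies within a single coding exon. The JNK windows are chr14:33114951-33114977 (minus strand, exon 6 of Mapk8), chr11:49763648-49763674 (plus strand, exon 6 of Mapk9) and chr5:103137538-103137564 (minus strand, exon 8 of Mapk10). The p38 windows lie in exon 7 of each gene, at chr15:89030060-89030086 (minus strand, Mapk11), chr15:89018870-89018896 (minus strand, Mapk12), chr17:28995309-28995335 (plus strand, Mapk13) and chr17:28947364-28947390 (plus strand, Mapk14). The JNK windows match each other at 23 or 24 of 27 bases and the p38 windows at 19 to 23.

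The same comparison bears on how well the counts keep the genes apart. Over the aligned residues of the proteins the JNKs are 77.6% to 82.7% identical, the p38 kinases 58.3% to 75.0%, and DLK and LZK 57.9%. At the level of transcripts, however, the longest run of identical bases was 23 between JNK genes, at most 20 between p38 genes and 17 between Map3k12 and Map3k13. How reads that match several genes were counted is not stated in the sources used here.

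The libraries held 56096541 to 90288552 counts, and Sorbinil replicate 1 stood apart from the other 4 retinas. In this retina 18.5% of the 14992 genes were at least 2-fold below the DMSO mean, compared to 1.13% in Sorbinil replicate 3 and at most 0.84% in a DMSO retina. Its retinal cell markers were also shifted. The summed level of 15 rod markers was 146400 CPM (counts scaled to a common, TMM-normalized library size) in Sorbinil replicate 1 and 75830 to 105600 CPM in the other 4 retinas. The summed levels of 15 amacrine markers (612.6 CPM against 1544 to 2021 CPM), 16 ganglion cell markers (147.8 against 259.2 to 373.7) and 13 Müller glia markers (2676 against 6516 to 7562) were lower in it than in every other retina. The markers of all these retinal cell types were detected. Of 9 oligodendrocyte markers, Mog and Olig2 had 0 counts in all 5 retinas, but the list summed to 53.06 to 70.24 CPM. Lens markers summed to 57.56 and 36.93 CPM in replicate 3 of DMSO and of Sorbinil and to at most 2.93 CPM in the other 3 retinas. In bulk RNA, fewer cells of a type and less RNA per cell cannot be told apart. Some values moved in both Sorbinil retinas. Mitochondrially encoded genes took 3.70% and 4.05% of the counts in Sorbinil replicates 1 and 3 and 1.94% to 2.66% in the DMSO retinas. The median of 20 endothelial and pericyte markers was -1.96 and -0.65 on the log2 scale against the DMSO mean. Their summed level, however, was 191.5 and 489.3 CPM in Sorbinil replicates 1 and 3 and 394.3 to 599.8 CPM in the DMSO retinas. By that measure replicate 3 lay within the DMSO range.

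None of the 10 kinase genes was called at the threshold of the study, which takes genes that differ 2-fold or more with p no larger than 0.1 before adjustment. Of all genes tested, 257 (1.71%) were called and 203 (1.35%) were called lower. After Benjamini-Hochberg adjustment the smallest p of any gene in edgeR's quasi-likelihood (QL) test was 0.758, so 0 genes passed 0.05. Before adjustment, 751 of the 14992 genes tested had a p under 0.05. With the DESeq2 Wald test 21 genes and with edgeR's likelihood ratio test 14 genes passed 0.05 after adjustment, none of them a kinase described here. Of the 10 kinase genes, 1 (Map3k13) had an unadjusted p under 0.05 in the QL test, and both other tests also called 0 of the 10. The median log2 fold change of the 10 kinase genes was 0.18, compared to -0.0078 for all genes tested, with 7 values above 0 and 3 below. Of the 14992 genes tested, 7653 had a log2 fold change below 0. Against the DMSO mean, the median of the 10 genes was 0.37 on the log2 scale in Sorbinil replicate 1 and 0.04 in replicate 3. The same median in the DMSO retinas ran from -0.07 to 0.06, so only Sorbinil replicate 1 lay outside the spread of the controls.

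**Figure D1:**
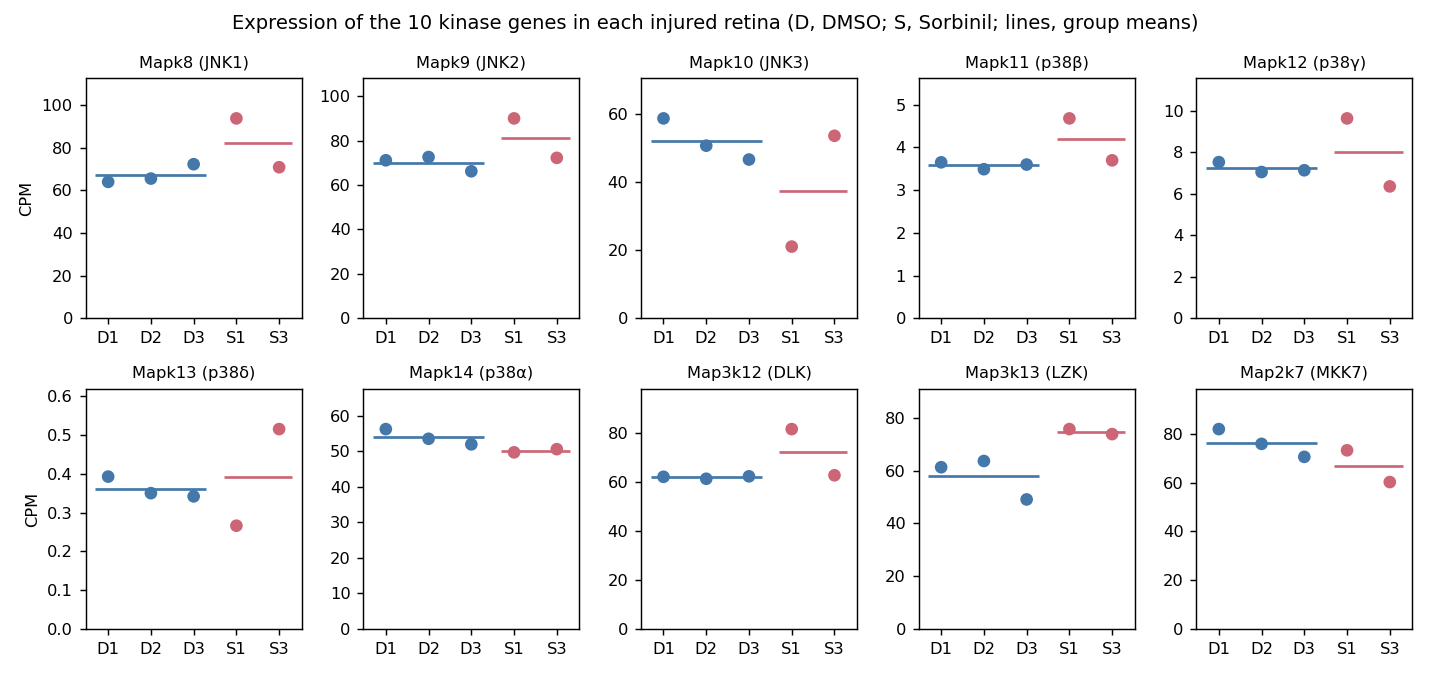
Expression in CPM (y axis, from 0, with its own scale per gene) of the 10 kinase genes in DMSO replicates 1 to 3 (D1 to D3, blue) and Sorbinil replicates 1 and 3 (S1 and S3, red), with a line at each group mean. Map3k13 has both Sorbinil points (75.72 and 73.82 CPM) above all DMSO points, and Mapk10 has S1 alone far below the rest (21.06 CPM).

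Both Sorbinil retinas lay above all DMSO retinas for Mapk11, Map3k12 and Map3k13, and below all of them for Mapk14. For all genes tested, the groups were apart in this way in 12.8% of genes with Sorbinil higher and in 10.5% with Sorbinil lower. For the other 6 kinase genes the groups overlapped. The exact permutation test (two-sided, 10 groupings of the 5 retinas) gave p = 0.1 for Mapk11, Map3k12 and Map3k13, which is the smallest p that 2 retinas against 3 allow, and p = 0.2 for Mapk14.

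LZK had the smallest p-value of the 10 kinases, and its transcript was higher in both Sorbinil retinas than in any control. Map3k13 (ENSMUSG00000033618) lies on chromosome 16 (plus strand, 21613096 to 21752189). Its expression was 61.27, 63.63 and 49.06 CPM in DMSO replicates 1, 2 and 3, and 75.72 and 73.82 CPM in Sorbinil replicates 1 and 3. The lowest value was that of DMSO replicate 3, and both Sorbinil values were above every DMSO value. The mean was 57.98 ± 7.82 CPM (SD, n = 3) in DMSO retinas against 74.77 ± 1.34 CPM (SD, n = 2) in Sorbinil retinas, a 1.29-fold difference. This is a log2 fold change of 0.37 (standard error 0.15, 95% interval 0.0018 to 0.73, unadjusted p = 0.0492, adjusted p = 0.758, edgeR QL test). No other of the 10 genes had an unadjusted p of 0.1 or less, a level that 6.98% of all genes tested reached in this direction and 4.33% in the other. A count of 1 in 10 is close to that share. Without Sorbinil replicate 1 the log2 fold change was 0.36 (unadjusted p = 0.0657, edgeR) and without DMSO replicate 3 it was 0.26 (unadjusted p = 0.122, edgeR). Scaling by library size alone, which moved the median of all genes to -0.11, gave 0.26 (unadjusted p = 0.21, edgeR). Mitochondrial counts and the median of the vascular markers also differed in both Sorbinil retinas. The summed vascular level lay outside the DMSO range only in replicate 1. Their parts in the difference of Map3k13 were not tested. Map3k13 shares 227 exonic bases with a noncoding gene, 1300002E11Rik, on the same strand.

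DLK showed a smaller difference that was carried by a single retina. Map3k12 (ENSMUSG00000023050) lies on chromosome 15 (minus strand, 102406017 to 102427148). The DMSO retinas were nearly equal, at 62.27, 61.47 and 62.47 CPM, and Sorbinil replicate 3 was at 62.89 CPM, just above them. Sorbinil replicate 1 measured 81.8 CPM. Group means were 62.07 ± 0.526 (SD, n = 3) for DMSO and 72.35 ± 13.4 CPM (SD, n = 2) for Sorbinil. With both Sorbinil retinas the log2 fold change was 0.22 (standard error 0.14, 95% interval -0.13 to 0.58), and it did not pass the threshold (unadjusted p = 0.177, adjusted p = 0.758, edgeR QL test). Without Sorbinil replicate 1 it was 0.03. Exons of Map3k12 overlap exons of Pcbp2 by 1688 bases and of Tarbp2 by 330 bases on the opposite strand. Gm62760 (209 bases) and Gm10337 (162 bases) also overlap them on that strand. The libraries kept strand, but the counting is not stated to use it, so reads in these stretches cannot be assigned to Map3k12 with certainty.

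The level of DLK relative to LZK differed between the groups by less than the spread between retinas. Per kilobase of exon, Map3k12 was at 0.82, 0.779 and 1.03 times the level of Map3k13 in the DMSO retinas and at 0.872 and 0.687 times in Sorbinil replicates 1 and 3. On this scale LZK was above DLK in 4 of the 5 retinas, but with the length of the longest transcript DLK was above LZK in all 5 (1.17 to 1.74 times), so which of them is more abundant depends on the length used. The difference between the groups does not depend on it. The log2 ratio was -0.20 ± 0.21 (SD, n = 3) with DMSO and -0.37 ± 0.24 (SD, n = 2) with Sorbinil, a difference of -0.17 (exact permutation test, two-sided, p = 0.6). Leaving out Sorbinil replicate 1 gave -0.34, and leaving out replicate 3 gave 0.0041.

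MKK7, the MAP2K that acts on the JNKs and not on p38, had the highest level of the 10 transcripts per kilobase of exon. Map2k7 (ENSMUSG00000002948) lies on chromosome 8 (plus strand, 4288734 to 4297897). It measured 82, 75.94 and 70.6 CPM with DMSO, and 73.3 and 60.26 CPM in Sorbinil replicates 1 and 3. Only Sorbinil replicate 3 lay below the DMSO retinas, and the groups overlapped. The log2 fold change was -0.19 (standard error 0.14, 95% interval -0.54 to 0.16, unadjusted p = 0.228, edgeR QL test). Without Sorbinil replicate 1 it was -0.33 (unadjusted p = 0.0389, edgeR) and without replicate 3 it was -0.05, and neither passed the threshold. Exons of Map2k7 share 1349 bases with the gene model Gm49320 on the same strand and 224 with Gm63796 on the opposite strand. The counts of Map2k7 are uncertain to that extent.

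The other 3 MAP2Ks in this pathway were even closer to the controls. Map2k4, which encodes MKK4 and acts with MKK7 on the JNKs, had a log2 fold change of 0.10 (unadjusted p = 0.394, edgeR QL test). For the p38 activators MKK3 (Map2k3) and MKK6 (Map2k6) the values were 0.06 and 0.14. None of the 3 was called.

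Among the JNKs, Mapk8 and Mapk9 lay slightly above the controls in Sorbinil replicate 1, and Mapk10 lay far below them in the same retina. Mapk8 (ENSMUSG00000021936, chromosome 14, minus strand, 33099855 to 33169157) encodes JNK1, which most tissues express. It was at 64.04, 65.59 and 72.33 CPM with DMSO and at 93.85 and 70.92 CPM in Sorbinil replicates 1 and 3. Mapk9 (ENSMUSG00000020366, chromosome 11, plus strand, 49737514 to 49779038) encodes JNK2, also widely expressed. It was at 71.13, 72.58 and 66.18 CPM with DMSO and at 89.99 and 72.22 CPM with Sorbinil. In both genes Sorbinil replicate 1 was the highest of the 5 retinas and Sorbinil replicate 3 lay within the DMSO range. The log2 fold changes were 0.29 (standard error 0.16, 95% interval -0.10 to 0.68) for Mapk8 and 0.21 (standard error 0.14, 95% interval -0.13 to 0.55) for Mapk9. Neither passed the threshold (unadjusted p = 0.115 and 0.176, edgeR QL test). Without Sorbinil replicate 1 they were 0.09 and 0.06.

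Mapk10 (ENSMUSG00000046709) lies on chromosome 5 (minus strand, 103055814 to 103359375) and encodes JNK3, the JNK found mainly in the nervous system. It had the largest difference of the 10 genes, at 58.74, 50.72 and 46.65 CPM with DMSO, 21.06 CPM in Sorbinil replicate 1 and 53.63 CPM in Sorbinil replicate 3. Sorbinil replicate 3 was within the DMSO range, and replicate 1 was below every other retina. Group means were 52.04 ± 6.15 (SD, n = 3) for DMSO and 37.34 ± 23 CPM (SD, n = 2) for Sorbinil. With both Sorbinil retinas the log2 fold change was -0.48 (standard error 0.39, 95% interval -1.43 to 0.48, unadjusted p = 0.264, adjusted p = 0.758, edgeR QL test). Without Sorbinil replicate 1 it was 0.05. Without Sorbinil replicate 3 it was -1.30 and passed the threshold, in a fit where calls were far more common among all genes. The shift of Mapk10 in Sorbinil replicate 1 (-1.31 on the log2 scale against the DMSO mean) went with the medians of 15 amacrine markers (-1.43), 16 ganglion cell markers (-1.17) and 15 bipolar markers (-1.14) in that retina. Some lists of cells other than neurons were about as low there or lower. Medians were -1.44 for 13 Müller glia markers and -1.96 for 20 endothelial and pericyte markers. They were -1.09 for 11 pigment epithelium markers and -0.98 for 16 microglia markers. Not all lists were low, with medians of 0.54 for 15 rod markers and 0.42 for 11 cone markers. Horizontal cell (-0.76) and oligodendrocyte markers (-0.39) were less low, and lens markers were lower (-2.63). The part of any of these lists in the value of Mapk10 was not tested. In Sorbinil replicate 3 the medians of the amacrine, ganglion cell and bipolar markers were 0.06, -0.21 and -0.02, and Mapk10 was at 0.04. Opposite-strand noncoding genes overlap exons of Mapk10 by 278 bases, of Mapk9 by 189 and of Mapk12 by 153, while Mapk8, Mapk11, Mapk13 and Mapk14 have no exonic overlap with another gene.

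**Figure D2:**
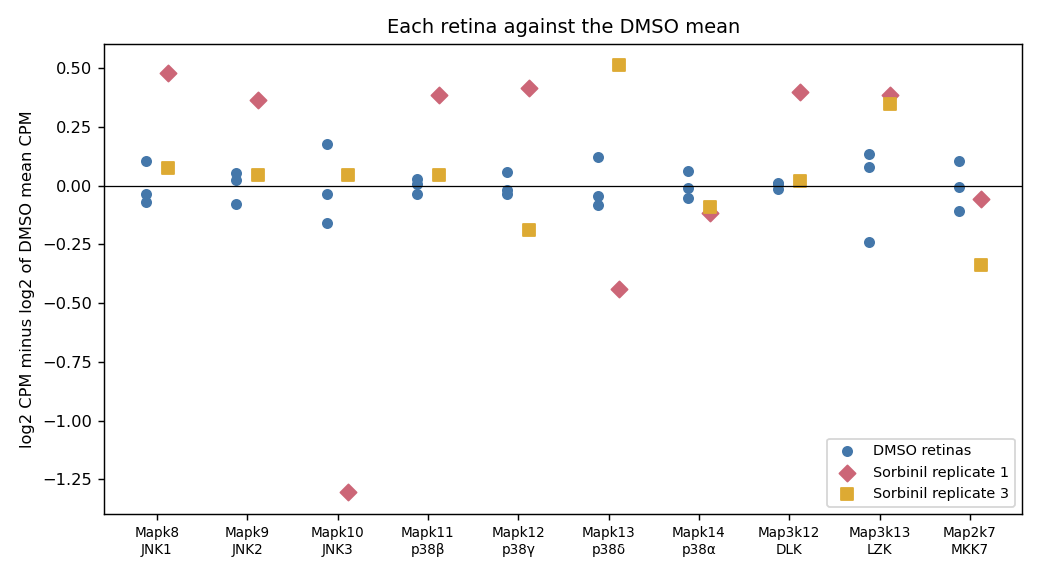
Log2 CPM of each retina minus the log2 of the DMSO mean CPM (y axis) for each of the 10 genes (x axis), with DMSO retinas as circles, Sorbinil replicate 1 as diamonds and Sorbinil replicate 3 as squares. Sorbinil replicate 1 is at -1.31 for Mapk10 and between 0.36 and 0.48 for 6 other genes, where Sorbinil replicate 3 is near 0 except for Map3k13 (0.35) and Mapk12 (-0.19).

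The makeup of the JNK family followed the same retina. Levels per kilobase of merged exons were used so that the genes could be compared. JNK3 made up 25.1%, 22.1% and 20.8% of the summed JNK level in the DMSO retinas and 22.5% in Sorbinil replicate 3, but 8.18% in Sorbinil replicate 1. Over all 5 retinas JNK2 had the largest mean share (44.8%), followed by JNK1 (35.5%) and JNK3 (19.7%). When the longest transcript was used as the length, JNK1 (41.5%) came before JNK2 (37.9%), so the order of JNK1 and JNK2 depends on the length used, and JNK3 was the lowest with either length. The log2 ratio of JNK3 to the sum of JNK1 and JNK2 was -1.78 ± 0.18 (SD, n = 3) with DMSO and -2.64 ± 1.21 (SD, n = 2) with Sorbinil. The difference of -0.86 did not exceed the spread (exact permutation test, two-sided, p = 0.3), and it was -0.0087 without Sorbinil replicate 1.

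**Figure D3:**
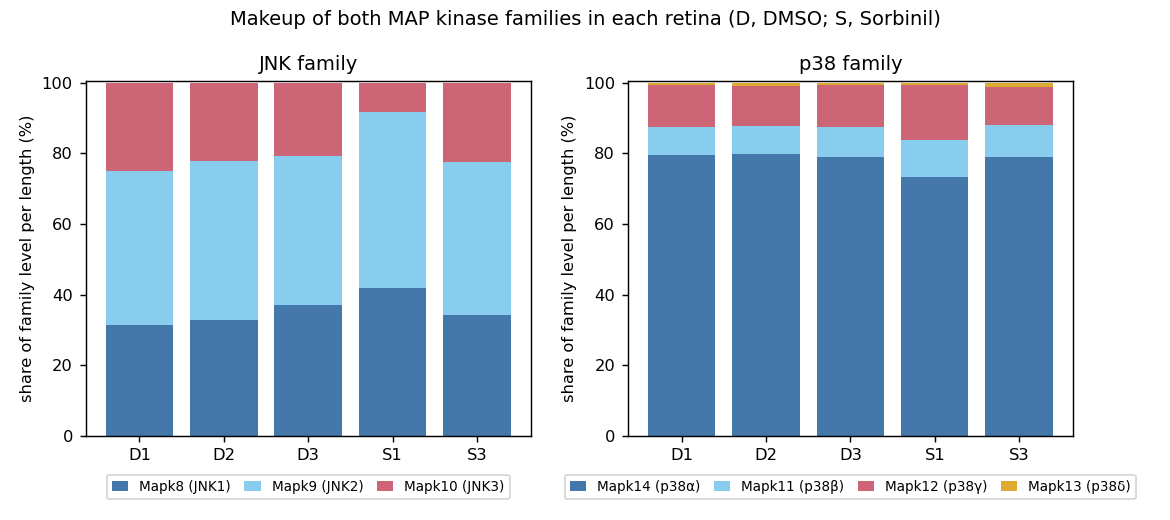
Share of each gene (y axis, percent) in the summed level per kilobase of the JNK family (left) and of the p38 family (right) in each retina (D1 to D3, DMSO; S1 and S3, Sorbinil). The JNK3 share is 8.18% in S1 and 20.8% to 25.1% in the other 4 retinas, and the p38α share is 73.2% in S1 and 79% to 79.7% elsewhere.

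Of the p38 kinases, p38α varied least and was by far the most abundant. Mapk14 (ENSMUSG00000053436) lies on chromosome 17 (plus strand, 28910268 to 28967381) and encodes p38α, the form found in nearly all cells and the main p38 of inflammatory signaling. It measured 56.21, 53.49 and 51.92 CPM with DMSO, and 49.67 and 50.56 CPM with Sorbinil. Both Sorbinil retinas were below the lowest DMSO retina, by a small margin. Group means were 53.87 ± 2.17 (SD, n = 3) for DMSO and 50.12 ± 0.629 CPM (SD, n = 2) for Sorbinil. The log2 fold change was -0.10 (standard error 0.11, 95% interval -0.37 to 0.16, unadjusted p = 0.365, edgeR QL test), so the interval does not reach a 2-fold change in either direction.

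Mapk11 (ENSMUSG00000053137) and Mapk12 (ENSMUSG00000022610) are neighbours on the minus strand of chromosome 15, from 89026688 to 89033896 and from 89014785 to 89025011. Mapk11, for p38β, was at 3.65, 3.49 and 3.60 CPM with DMSO and at 4.68 and 3.70 CPM in Sorbinil replicates 1 and 3. The Sorbinil values were above the DMSO values, with replicate 3 only just so. Mapk12, for p38γ, a form best known from skeletal muscle, was at 7.52, 7.04 and 7.13 CPM with DMSO and at 9.63 and 6.35 CPM with Sorbinil. Here the Sorbinil retinas lay on opposite sides of the DMSO range. The log2 fold changes were 0.23 (standard error 0.21) for Mapk11 and 0.14 (standard error 0.22) for Mapk12 (unadjusted p = 0.323 and 0.547, edgeR QL test). Without Sorbinil replicate 1 they were 0.06 and -0.18.

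Mapk13 (ENSMUSG00000004864), for p38δ, lies on chromosome 17 (plus strand, 28987747 to 28999207) and was barely expressed. It was counted with 38, 28 and 19 reads in the DMSO retinas and with 14 and 35 reads in Sorbinil replicates 1 and 3. This corresponds to 0.393, 0.350 and 0.342 CPM with DMSO and to 0.266 and 0.516 CPM with Sorbinil, again on opposite sides of the controls. Its log2 fold change was 0.12 (standard error 0.41), and the 95% interval from -0.89 to 1.14 reaches past a 2-fold increase.

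p38α made up 79.6%, 79.7% and 79.0% of the summed p38 level per kilobase in the DMSO retinas, 73.2% in Sorbinil replicate 1 and 79.1% in replicate 3. Averaged over the 5 retinas, p38γ had 12.3%, p38β 8.81% and p38δ 0.75%. The log2 ratio of p38α to the other p38 kinases differed by -0.26 between the groups (exact permutation test, two-sided, p = 0.2), and by -0.03 without Sorbinil replicate 1.

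Across genes, the levels per kilobase of merged exons placed MKK7 first, at 18.7 ± 2.07 CPM per kilobase (SD, n = 5 retinas), and p38α second, at 10.3 ± 0.507. Next came JNK2 (7.87 ± 0.959), LZK (7.43 ± 1.23), JNK1 (6.24 ± 1.02) and DLK (6.13 ± 0.81), whose spreads overlap. JNK2 was above LZK in 4 of 5 retinas, LZK above JNK1 in 4, and JNK1 above DLK in 3. JNK3 followed (3.42 ± 1.09) and was below DLK in all 5 retinas, and then p38γ (1.62 ± 0.267), p38β (1.16 ± 0.147) and p38δ (0.098 ± 0.0241). JNK3 was above p38γ in 4 of 5 retinas, with Sorbinil replicate 1 the exception (1.56 against 2.07 CPM per kilobase), and p38γ was above p38β in all 5. With the length of the longest transcript, MKK7 and p38α stayed first and second, and JNK3 and the 3 minor p38 kinases kept the last 4 places, while JNK1 moved to the third place and LZK to the sixth.

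**Figure D4:**
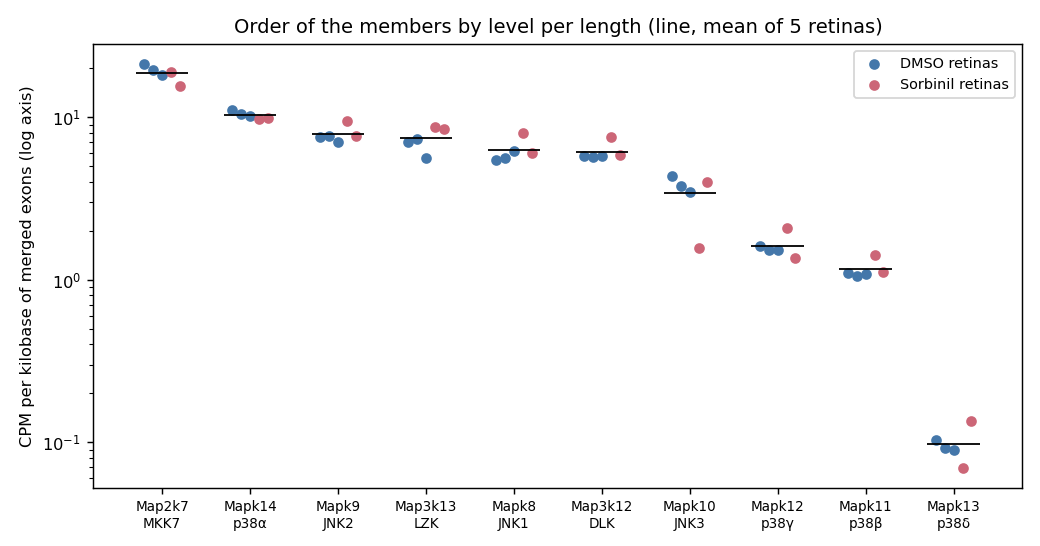
Level of the 10 genes in CPM per kilobase of merged exons (y axis, log scale), ordered by the mean of the 5 retinas (line), with DMSO retinas in blue and Sorbinil retinas in red. MKK7 (mean 18.7) and p38α (10.3) lead, p38δ (0.098) is last, and Sorbinil replicate 1 for JNK3 (1.56) lies farthest from its gene's line.

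The spread over the 5 retinas separated the genes further. Mapk14 had a range of 0.18 on the log2 scale from lowest to highest retina, which was smaller than that of all but 4.78% of the genes tested. Mapk10 had a range of 1.48, and 85.2% of genes had a smaller one. The other 8 kinase genes had ranges from 0.41 (Map3k12) to 0.88 (Mapk13), and 29.6% and 63.3% of genes had a smaller range than these.

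The retinas also differed in sex. Counts on 4 Y-linked genes (Ddx3y, Eif2s3y, Kdm5d and Uty) summed to 16268 and 17015 in DMSO replicates 1 and 2 and to 17064 in Sorbinil replicate 1, but to 2 and 4 in replicate 3 of DMSO and of Sorbinil. Among male retinas, Sorbinil replicate 1 against 2 DMSO retinas gave a log2 difference of 0.28 for Map3k13, 0.40 for Map3k12, -1.38 for Mapk10 and -0.14 for Mapk14. Among female retinas, with 1 in each group, the same genes gave 0.59, 0.0098, 0.20 and -0.04. Map3k13 thus had the same sign in both sexes, as did Mapk9, Mapk11, Map3k12, Mapk14 and Map2k7, whereas Mapk8, Mapk10, Mapk12 and Mapk13 did not. With 1 Sorbinil retina per sex, sex cannot be told apart from the difference between the Sorbinil retinas.

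To place the patterns of DLK and JNK3 among the other genes, the 3 genes with the most similar profile over the 5 retinas were taken, by the mean absolute difference of centred log2 CPM. For Map3k12 these were Etfdh (0.0093), Lsm11 (0.010) and Ulk3 (0.011). Etfdh encodes a mitochondrial flavoprotein dehydrogenase, Lsm11 a component of histone mRNA processing and Ulk3 a kinase. Like DLK, Etfdh was nearly equal in 4 retinas (14.16 to 14.5 CPM) and higher in Sorbinil replicate 1 (18.91 CPM). For Mapk10 they were Kcnk3 (0.017), which encodes a potassium channel, Hhip (0.017), which encodes a hedgehog-binding protein, and Gpr176 (0.018), which encodes an orphan receptor. Kcnk3 was at 40.01, 33.81 and 30.79 CPM with DMSO, at 14.21 CPM in Sorbinil replicate 1 and at 36.63 CPM in replicate 3.

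The other genes of the pathway were taken from 8 lists, which held 104 genes that could be tested. At the threshold of the study 1 of them was called, compared to 1.71% of all genes, and 13 of the 104 had an unadjusted p of 0.1 or less, a count close to the 11.3% of all genes at that level. All 104 had an adjusted p of 0.758 or more (edgeR QL test). The called gene was Map3k6, which encodes the MAP3K ASK2. It was at 0.724, 0.913 and 1.15 CPM with DMSO and at 0.114 and 0.383 CPM with Sorbinil. These values rest on 64 to 73 reads per DMSO retina and on 6 and 26 reads in Sorbinil replicates 1 and 3. Its log2 fold change was -1.86 (standard error 0.57, unadjusted p = 0.0182, edgeR). It passed the threshold with either Sorbinil retina left out, and a filter of at least 10 counts in every retina removes it.

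**Figure D5:**
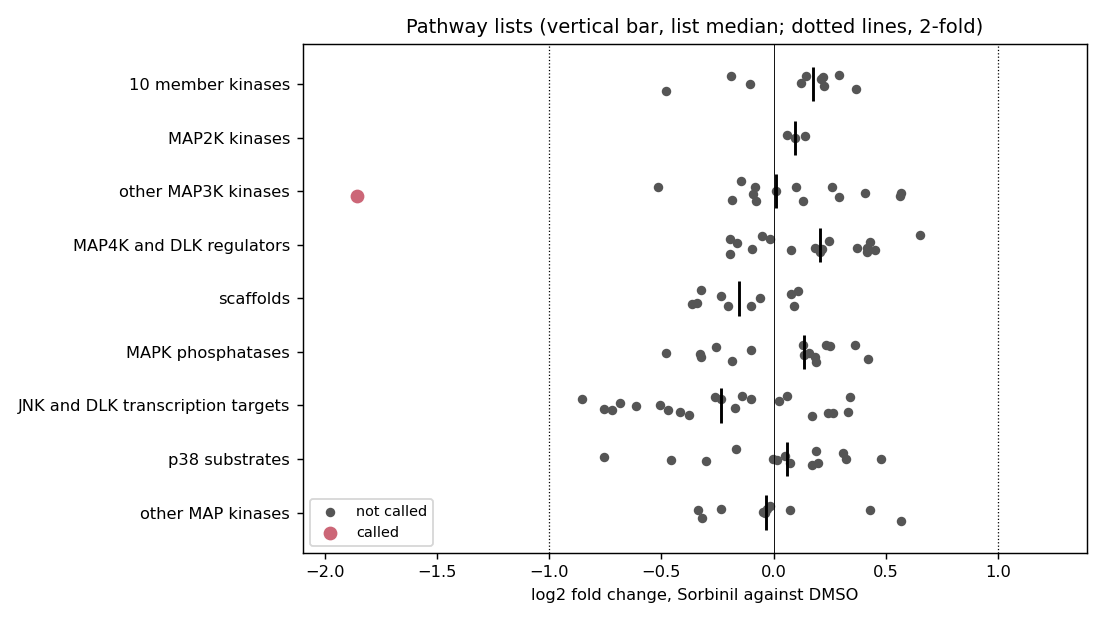
Log2 fold change (x axis, Sorbinil against DMSO) of every tested gene in the 10 kinase genes and in 8 lists of pathway genes (rows), with a vertical bar at each list's median and dotted lines at a 2-fold change. Map3k6 (-1.86) is the only called gene, and the medians run from -0.23 (JNK and DLK transcription targets) to 0.21 (MAP4K and DLK regulators).

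Of the 15 other MAP3Ks, 3 had an unadjusted p of 0.1 or less with higher values in Sorbinil retinas and 1, Map3k6, with lower values (6.98% and 4.33% of all genes), with a list median of 0.01. Map3k2 (MEKK2, upstream of the JNKs and of ERK5) was at 62.56, 69.74 and 71.31 CPM with DMSO and at 109.9 and 91.08 CPM with Sorbinil. This gave a log2 fold change of 0.57 (standard error 0.14, unadjusted p = 0.00651, edgeR QL test), short of 2-fold. The remaining pair was Map3k1 (0.41) and Taok1 (0.57). Among the mixed lineage kinases, relatives of DLK that also act on the JNKs, the log2 fold change was -0.14 for Map3k9 (MLK1), -0.08 for Map3k10 (MLK2), -0.08 for Map3k11 (MLK3), -0.18 for Map3k21 (MLK4) and -0.52 for Map3k20 (ZAK). The stress kinase ASK1 (Map3k5) was at -0.09 and TAK1 (Map3k7), which links cytokine receptors to p38 and JNK, at 0.10. None of these 7 was called, and Map3k20 had the smallest unadjusted p, at 0.251 (edgeR). Without Sorbinil replicate 3, Map3k20 passed the threshold, in a fit where calls were far more common among all genes.

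The 17 MAP4Ks and regulators of DLK included none that was called. In 11 of them the log2 fold change was above 0 (median 0.21), while 7653 of all 14992 genes tested were below 0. An unadjusted p of 0.1 or less with higher values was found for 3 of the 17, compared to 6.98% of all genes. No test was made of this count. These were the ubiquitin pathway genes Mycbp2, Fbxo45 and Usp9x. Mycbp2 encodes PHR1, the ubiquitin ligase that removes DLK in axons, and Fbxo45 encodes its partner, while Usp9x encodes a deubiquitinase that stabilizes DLK. Mycbp2 was at 146.6, 172.5 and 174.6 CPM with DMSO and at 226.8 and 198.7 CPM with Sorbinil, and its log2 fold change was 0.37 (standard error 0.14, unadjusted p = 0.0415, edgeR QL test). Usp9x measured 372.9, 412 and 453.9 CPM with DMSO and 593.7 and 535.2 CPM with Sorbinil, and its log2 fold change was 0.45 (unadjusted p = 0.026, edgeR). Fbxo45 was at 0.25. The kinases that act above DLK in neurons were below 0, with Map4k4 at -0.05, Mink1 at -0.19 and Tnik at -0.19, all with unadjusted p-values over 0.2 (edgeR). Against the DMSO mean these 3 genes were at 0.02, -0.13 and 0.21 in Sorbinil replicate 3 and at -0.12, -0.26 and -0.76 in replicate 1. Other MAP4Ks of the list went either way.

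Scaffolds of the JNK pathway had a list median of -0.15, with 7 of 10 genes below 0 (7653 of all 14992 genes tested). None was called and none had an unadjusted p of 0.1 or less. Against the DMSO mean the list median was -0.42 in Sorbinil replicate 1 and -0.01 in replicate 3. Mapk8ip1 (JIP1, which holds DLK, MKK7 and JNK together) was at 128.3, 104.2 and 96.21 CPM with DMSO and at 64.28 and 105.8 CPM in Sorbinil replicates 1 and 3, with a log2 fold change of -0.37. Mapk8ip3 (JIP3, a carrier of axonal JNK cargo) was at 160.3, 140.6 and 131.8 CPM with DMSO and at 89.0 and 141.4 CPM with Sorbinil, with -0.32. In both genes Sorbinil replicate 1 was below every other retina and replicate 3 was within the DMSO range. The scaffold genes Mapk8ip2 (JIP2) and Spag9 (JIP4) were at -0.10 and 0.09.

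None of the 15 MAP kinase phosphatases tested was called. Their median was 0.13, and 2 had an unadjusted p of 0.1 or less, both with higher values in Sorbinil retinas (6.98% of all genes). The smallest p-value was that of Dusp22 (0.42, unadjusted p = 0.0425, edgeR QL test), and the other gene was Ppm1a. Dusp8, Dusp10 and Dusp16, phosphatases that prefer the JNKs and p38, were at 0.13, -0.33 and -0.19, and the immediate early phosphatase Dusp1 was at -0.26. The lower gene with the smallest p-value was Dusp4 (-0.48, unadjusted p = 0.121, edgeR).

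Transcripts that JNK and DLK signaling are known to act on had the lowest list median, at -0.23. Of these, 14 of 21 were below 0 (7653 of all 14992 genes tested). None was called, and 1 had an unadjusted p of 0.1 or less with lower values (4.33% of all genes). Their median against the DMSO mean was -0.48 in Sorbinil replicate 1 and -0.17 in replicate 3, beside ganglion cell marker medians of -1.17 and -0.21, whose part in it was not tested. The gene with a p-value under 0.1 was Jund, which encodes the AP-1 subunit JunD. It was at 148.1, 123.3 and 127.1 CPM with DMSO and at 95.41 and 103.6 CPM with Sorbinil, a log2 fold change of -0.42 (standard error 0.14, unadjusted p = 0.0234, edgeR QL test). Jun, the namesake target of JNK, was at 56.73, 52.19 and 50.27 CPM with DMSO, at 37.99 CPM in Sorbinil replicate 1 and at 56.09 CPM in replicate 3, with a log2 fold change of -0.17. Atf3, an injury-induced factor of RGCs, was at 16.13, 18.89 and 11.97 CPM with DMSO and at 13.83 and 12.83 CPM with Sorbinil, which is within the DMSO range. Atf2, which encodes a binding partner of c-Jun, was at 0.34 (unadjusted p = 0.105, edgeR), the smallest p-value among the targets above 0.

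The 14 p38 substrates tested had a median of 0.06, with none called. Mapkapk2 (MK2), the main p38α substrate kinase in inflammation, was at 0.05 and Mapkapk3 (MK3) at -0.30 (unadjusted p = 0.411, edgeR QL test). The smallest p-values were those of Mef2a (0.31, unadjusted p = 0.088, edgeR) and, below 0, Mknk2 (-0.46, unadjusted p = 0.102, edgeR). The 10 other MAP kinases had a median of -0.03 and no call, with Nlk at 0.43 and Mapk4 at -0.32 (unadjusted p = 0.0591 and 0.0596, edgeR). For each of the 8 lists the count of genes called in either direction was at most 1, and no test of a list as a whole was made.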

How the data were processed

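Injured retinas of 3 DMSO and 2 Sorbinil mice were compared. After adaptor trimming, the authors mapped reads to GRCm39 (mm39) in CLC Genomics Workbench, and the deposited values are raw total counts of each gene. The annotation and the use of strand in counting are not given in the sources used here, and the paper and the labels name different total RNA kits. The authors excluded Sorbinil replicate 2 after PCA, and it was not analysed here.

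They were fitted in edgeR 4.0.16 under R 4.3.3 (filterByExpr by group, minimum count 10, TMM, glmQLFit and glmQLFTest, Benjamini-Hochberg adjustment over all genes). A gene was called where p before adjustment was 0.1 or less and the change 2-fold or more. Permutation tests of single genes and the median of the 10 kinases in each retina used log2(CPM + 0.01). So did the shares of genes at least 2-fold below the DMSO mean. Permutation tests of ratios used log2 ratios of levels per kilobase. Other values against the DMSO mean used log2 CPM with nothing added. Without molecular identifiers, counts understate the error of a value. No 2 libraries agreed within sampling noise. The steps were tested on simulated data.

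The kinases and gene lists were chosen with earlier results of these data known. Genes named are the 10 kinases, a fixed set of pathway genes, pathway genes called, the smallest p-value in each direction per list, and the 3 genes most like Map3k12 and most like the kinase with the largest change. Other genes with p of 0.1 or less, Map3k20 and Map3k21 were named after their values were seen. A few listed genes are not reported here. Alternatives were other filters, scalings (DESeq2 1.42.0 size factors, upper quartile, library size), tests (DESeq2 Wald, edgeR likelihood ratio), thresholds and transcript lengths, no mitochondrial or ribosomal RNA genes, a replicate block, leaving out each retina and a sex term, added after the data were seen.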

Additional observations from a re-analysis of the deposited data

How the results depend on the processing

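The count of 0 kinase genes called held under every alternative except 2. A threshold with no limit on the fold gave 1, Map3k13, beside 11.3% of all genes tested. The other was the fit without Sorbinil replicate 3, where Mapk10 passed the threshold and calls were far more common among all genes. The median log2 fold change of the kinase genes was 0.18, between 0.055 and 0.375 when each retina was left out, and 0.07 with library-size scaling. Pathway genes called numbered 1 in most settings, 0 with at least 10 counts in every retina (which drops Map3k6), 13 with no limit on the fold, and 1 to 9 when each retina was left out. The count was 2 without DMSO replicate 3 (Map3k6 and Gal) and 9 without Sorbinil replicate 3, in a fit with 2903 calls among all genes. These leave-one-out fits assume that a lone Sorbinil retina varies like the DMSO retinas. The sign turned when a Sorbinil retina was left out for Mapk10 (-1.304 to 0.053), Mapk12 (-0.18 to 0.41), Mapk13 (-0.44 to 0.52) and the log2 ratio of DLK to LZK (-0.34 to 0.0041). The cause of these turns was not tested. Map3k13 kept its sign in all 15 settings (0.26 to 0.45), with unadjusted p-values of 0.0386 (sex term) to 0.21 (edgeR). The replicate block called 0 kinase genes, 1 pathway gene and 203 genes in all, with a median of 0.15 for the kinase genes, -0.64 for Mapk10 (unadjusted p = 0.0996, edgeR) and 0.45 for Map3k13 (unadjusted p = 0.21, edgeR). Whether equal replicate numbers mark a pairing is not stated in the sources used here. The deviations of same-numbered retinas from their group means correlated at -0.24 and -0.13. With only 2 Sorbinil retinas these deviations mirror each other, so the correlations cannot settle it. Both replicate 3 retinas had almost no Y-linked counts (2 and 4) and the highest lens marker sums (57.56 and 36.93 CPM). Depth limits Mapk13, with 14 to 38 reads per retina, and Map3k6, with 6 reads in Sorbinil replicate 1.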
